A study of Arabidopsis thaliana with 36 samples.

Results

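The hypocotyl, the stem of the seedling below its cotyledons, was followed through the morning in plants that stayed in unshaded light. The comparison set hypocotyls collected after 180 min (180 min, the replicates labelled 2 and 3) against hypocotyls collected at the start of the experiment (0 min, replicates 1 and 2). It was chosen by the labels alone and uses 4 of the 36 RNA sequencing libraries of the series. All 4 libraries came from wild-type Arabidopsis thaliana of the Col-0 accession, with no mutant or transgene, given as 5 days old in the labels, grown in days of 16 h light and 8 h dark, and left unshaded throughout, in white light rich in red relative to far-red (high R/FR). The 0 min plates were harvested on day 6 at ZT2, that is 2 h after the lights came on, and the 180 min plates 180 min later. Each library pools the hypocotyls of 50 seedlings from 1 plate, cut from seedlings fixed in cold acetone. Time of day, time since the lights came on and seedling age moved together and cannot be told apart. The other high R/FR groups used here were hypocotyls at 15, 45 and 90 min, and cotyledons at 180 and 0 min, each with 2 libraries. The labels record no separate sowings or days for the replicates, so p-values measure the spread between plates, which may be technical.

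Plants time their day with a circadian clock built from transcription factors that repress one another in turn. CCA1 and LHY are related MYB factors that peak around dawn and bind the evening element and related sequences in the promoters of genes expressed later in the day. The pseudo-response regulators PRR9, PRR7, PRR5 and TOC1 follow one after the other through the day and repress CCA1 and LHY. The evening complex of ELF3, ELF4 and LUX acts later and represses the gene of PIF4, a growth-promoting factor. In the hypocotyl the clock sets when cells respond to light, auxin and other hormones, and the hypocotyl lengthens by expansion of its cells with little division.

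CCA1 and LHY are known to bind the evening element AAAATATCT and the CCA1 binding site AAAAATCT, and light-signalling factors the G-box CACGTG. Promoters of 4 clock genes that carry such letters are shown, a choice not made by the letters alone. Each is the 250 bases before the gene start in the RefSeq annotation of build TAIR10.1, printed 5′ to 3′ on the strand of the gene, with matches to these motifs on either strand in capitals. They lie at chr2:19232357-19232606 (PRR9, plus strand), chr5:8358547-8358796 (PRR5, minus strand), chr5:24674713-24674962 (TOC1, plus strand) and chr3:17182792-17183041 (LUX, plus strand).
PRR9: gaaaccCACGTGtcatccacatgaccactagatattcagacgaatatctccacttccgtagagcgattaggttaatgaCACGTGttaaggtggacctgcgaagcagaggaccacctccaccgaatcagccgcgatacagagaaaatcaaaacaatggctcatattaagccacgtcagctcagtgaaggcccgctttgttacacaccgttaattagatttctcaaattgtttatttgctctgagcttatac
PRR5: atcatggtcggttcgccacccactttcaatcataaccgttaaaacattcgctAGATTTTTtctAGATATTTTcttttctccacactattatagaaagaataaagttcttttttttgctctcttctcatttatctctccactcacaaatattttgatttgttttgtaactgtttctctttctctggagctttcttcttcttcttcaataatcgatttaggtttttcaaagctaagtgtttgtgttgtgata
TOC1: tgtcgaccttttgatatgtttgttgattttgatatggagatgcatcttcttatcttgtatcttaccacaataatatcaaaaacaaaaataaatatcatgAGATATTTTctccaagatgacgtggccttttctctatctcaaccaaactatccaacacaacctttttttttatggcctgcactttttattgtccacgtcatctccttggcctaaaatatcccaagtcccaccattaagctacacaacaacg
LUX: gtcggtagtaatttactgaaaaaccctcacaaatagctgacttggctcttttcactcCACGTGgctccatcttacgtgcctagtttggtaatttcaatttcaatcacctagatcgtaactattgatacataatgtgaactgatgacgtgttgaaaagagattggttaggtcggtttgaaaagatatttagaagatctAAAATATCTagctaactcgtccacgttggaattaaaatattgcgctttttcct
PRR9 held 2 matches to the G-box, 244 and 172 bases before its start. PRR5 held 1 evening element, 187 bases before the start, and 1 CCA1 binding site, 198 bases before it. TOC1 held 1 evening element, 151 bases before its start, and LUX held 1 G-box and 1 evening element, which stood 193 and 53 bases before its start. No letters of these motifs or of the telo-box (AAACCCTAA) and site II (TGGGCC) stood in this window of ELF4. CCA1, LHY and PRR7, whose promoters are not printed, each held 1 G-box, 193, 80 and 201 bases before the start. CCA1 and LHY fell and PRR7 rose, as given below. A match describes the letters alone. The lower coordinate of a gene was identical in RefSeq and the deposited annotation for 26% of genes and within 2000 bases for 99.8%. For minus-strand genes that coordinate is the end away from the window, so the shift of the windows was not measured. These windows, their distances and the motif shares below may be shifted.

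Of 33602 genes in the count table, 20126 had enough counts to be tested. Gene counts were 28946752 and 25061223 in the 180 min libraries and 25515406 and 28097926 in the 0 min libraries. Calls rest on edgeR's quasi-likelihood test, with p-values adjusted over all genes tested by the Benjamini-Hochberg method and a threshold of 0.05, and changes are log2 ratios of 180 over 0 min with their standard error (SE). By this rule 9044 genes differed, 44.9% of those tested: 4428 (22%) were higher and 4616 (22.9%) lower at 180 min. Counts within the gene lists below are read beside these shares of all genes. At least 2-fold, 1116 (5.55%) were higher and 938 (4.66%) lower. The median change over all genes was 0.0085, and the libraries of the groups did not overlap for 14578 genes (72.4%). Levels are CPM, gene counts divided by the scaled library size and brought to a common size for all libraries, and are not corrected for gene length. In these bulk samples, fewer cells of a type and less RNA per cell cannot be told apart.

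The change built up over the course. Set against the same 0 min libraries, 213 genes (1.06%) were called at 15 min, 3766 (18.7%) at 45 min and 5668 (28.2%) at 90 min. These comparisons share their 0 min libraries with the 180 min one. The comparison of 90 with 15 min shares no library with it. Of the 9044 genes called at 180 min, 7768 (85.9%) moved in the same direction at 90 over 15 min and 3802 (42%) were called in that direction, while 132 were called in the opposite one. The 3802 genes were 75.6% of the 5030 (25%) called at 90 over 15 min. Some gene lists described below leaned another way there than at 180 over 0 min. Heat shock genes gave 4 higher and 0 lower at 90 over 15 min, and histones 3 and 8. SAUR genes gave 3 and 9, XTH genes 3 and 6, and carbon starvation genes 2 and 10. Other lists kept their direction, with 0 higher and 21 lower for ribosome biogenesis, 1 and 13 for flavonoids, and 0 and 13 for touch genes. One of the 15 min libraries (replicate 2) stood apart, with 39 non-unique alignments per 100 gene counts and a summed 2077 CPM of chloroplast-encoded and 1253 CPM of mitochondrial genes, where the 180 and 0 min libraries had 234 to 313.3 CPM and 111 to 194.5 CPM. Without it, 85.5% of the 9044 kept the direction and 2517 (27.8%) were called in it, and the genes called at 90 over 15 min numbered 1384 higher and 1638 lower, against 2379 (11.8%) and 2651 (13.2%) with it. Without replicate 2 of 90 min 1649 were called lower.

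The dissection was checked with marker genes. KNAT1, a homeobox gene of the stem and shoot apex, had 252 and 250 CPM at 180 min and 340 and 399 CPM at 0 min in hypocotyl, against 0.264 and 0.228 CPM at 180 min and 0 and 0.0961 CPM at 0 min in cotyledon. Summed over 8 cotyledon and mesophyll markers, hypocotyls held 32970 and 36480 CPM at 180 min and 30490 and 31120 CPM at 0 min, and cotyledons 117800 and 117300 CPM at 180 min and 105500 and 101600 CPM at 0 min. Of these 8 markers 2 were called higher, LHCB1.3 and CA1, and 1 had no count. The 6 root markers that could be tested summed to 4382 and 4176 CPM at 180 min, below the 6368 and 6012 CPM at 0 min, most of it from PYK10, a beta-glucosidase of root and hypocotyl endoplasmic reticulum bodies. PYK10, RCI3 and SCR were called lower and WER and GL2 higher, SCR losing its call without either 180 min library or replicate 1 of 0 min (edgeR adjusted p = 0.0598 to 0.263), while the root meristem genes PLT1 and PLT2 had no count in the 4 libraries. Shoot apex markers summed to 278.6 and 275.9 CPM at 180 min against 365.4 and 421.6 CPM at 0 min, with KNAT1 the called member of 6 (a call lost without replicate 2 of 0 min, edgeR adjusted p = 0.0539), and the apex genes WUS, CLV3 and CUC2 had no count. Epidermis markers summed to 1654 and 1486 CPM at 180 min against 2136 and 2361 CPM at 0 min, with 3 of 8 called higher and 4 lower, the lower count being 2 without replicate 3 of 180 min or replicate 2 of 0 min. Stomatal markers (26.53 and 21.72 CPM at 180 min, 26.74 and 26.43 CPM at 0 min), vascular markers (586.1 and 593.3 CPM, against 615.6 and 486.7 CPM) and endodermis markers (223.2 and 292.7 CPM, against 275.2 and 295.9 CPM) overlapped between the groups in their sums. Single members were still called, 5 of 14 vascular markers higher and 2 lower (0 higher without replicate 2 of 0 min, 2 higher without replicate 2 of 180 min, 1 lower without replicate 1 of 0 min), 1 of 11 stomatal markers each way (none lower without replicate 3 of 180 min or replicate 2 of 0 min), and 1 of 10 endodermis markers lower, the last without a call when either 180 min library or replicate 1 of 0 min was left out. The part of the root, apex, epidermis and vascular markers in the changes below was not tested.

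The list of 29 clock genes split into 12 higher and 10 lower members, with a median change of -0.11. The 10 lower genes were all MYB-like factors of the CCA1, LHY and REVEILLE (RVE) family or their LNK coactivators, and the 12 higher ones held every pseudo-response regulator, GI, FKF1, CHE and the evening complex, with RVE7 as the exception from the MYB-like family. FKF1 and PRR3 had the weakest of these calls (edgeR adjusted p = 0.0308 and 0.0354). LHY (AT1G01060, chromosome 1, 33379 to 37871, TAIR10) had 143 and 148 CPM at 180 min, against 619 and 625 CPM at 0 min. Its change was -2.1 ± 0.07 (SE, 2 libraries per group, edgeR adjusted p = 2.16e-18). LHY had already come down at 45 min (445 and 429 CPM) and 90 min (309 and 362 CPM). CCA1 (AT2G46830, chromosome 2, 19245672 to 19248914) had 198 and 201 CPM at 180 min against 334 and 341 CPM at 0 min, a change of -0.76 ± 0.07 (adjusted p = 4.03e-10). Unlike LHY it stayed at 334 to 370 CPM through 15, 45 and 90 min, so the drop in CCA1 was seen only at 180 min. RVE8, a relative that activates evening genes, had 68.5 and 66.3 CPM at 180 min against 99.0 and 95.2 CPM at 0 min. LNK1, a coactivator that works with RVE8, fell by 0.39 on the log2 scale (116 and 121 CPM at 180 min, 148 and 162 CPM at 0 min). Its relative LNK2 did not pass the test (490 and 518 CPM at 180 min, 507 and 574 CPM at 0 min, edgeR adjusted p = 0.267).

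The pseudo-response regulators rose on different courses. PRR9 (AT2G46790) had 28.4 and 28.2 CPM at 180 min and 11.3 and 11.6 CPM at 0 min, and was highest at 90 min with 31.2 and 31.6 CPM. PRR7 (AT5G02810) averaged 168 ± 3.67 CPM at 180 min and 31.8 ± 7.44 CPM at 0 min (SD, n = 2 each), a change of 2.40 ± 0.13 (edgeR adjusted p = 7.66e-14), and was still climbing between 90 min (70.5 and 73.9 CPM) and 180 min. PRR5 (AT5G24470) stayed between 0.206 and 0.492 CPM in all 8 libraries up to 90 min and had 4.41 and 4.13 CPM at 180 min, a change of 3.4 ± 0.32 (adjusted p = 7.74e-10). Both 180 min libraries of PRR5 lay far above the other 8. TOC1 (AT5G61380), known to peak late in the family, had 21.5 and 21.8 CPM at 180 min against 13.4 and 12.2 CPM at 0 min, and lay between 13.4 and 16.6 CPM at the times between.

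Among the later-acting genes, GI, which stabilises a light-sensing F-box protein, had 37.4 and 36.8 CPM at 180 min against 6.12 and 11.3 CPM at 0 min (change 2.08 ± 0.18, edgeR adjusted p = 9.08e-10). ELF3 had 20.7 and 20.6 CPM at 180 min and 8.89 and 8.37 CPM at 0 min. LUX had 2.72 and 2.45 CPM at 180 min against 1.64 and 1.39 CPM at 0 min, and its 15, 45 and 90 min libraries lay between 1.35 and 1.97 CPM. ELF4 was low, with 0.545 and 0.419 CPM at 180 min against 0.0322 and 0.236 CPM at 0 min. Its call (change 1.78 ± 0.53, edgeR adjusted p = 0.00724) was lost without replicate 2 of 180 min (adjusted p = 0.0659) or replicate 1 of 0 min (adjusted p = 0.144). CHE, a TCP factor that represses CCA1, had 42.4 and 40.8 CPM at 180 min against 8.22 and 8.75 CPM at 0 min, but its 45 min libraries (24.8 and 23.2 CPM) lay above those at 90 min (20.4 and 20.2 CPM).

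**Figure D1:**
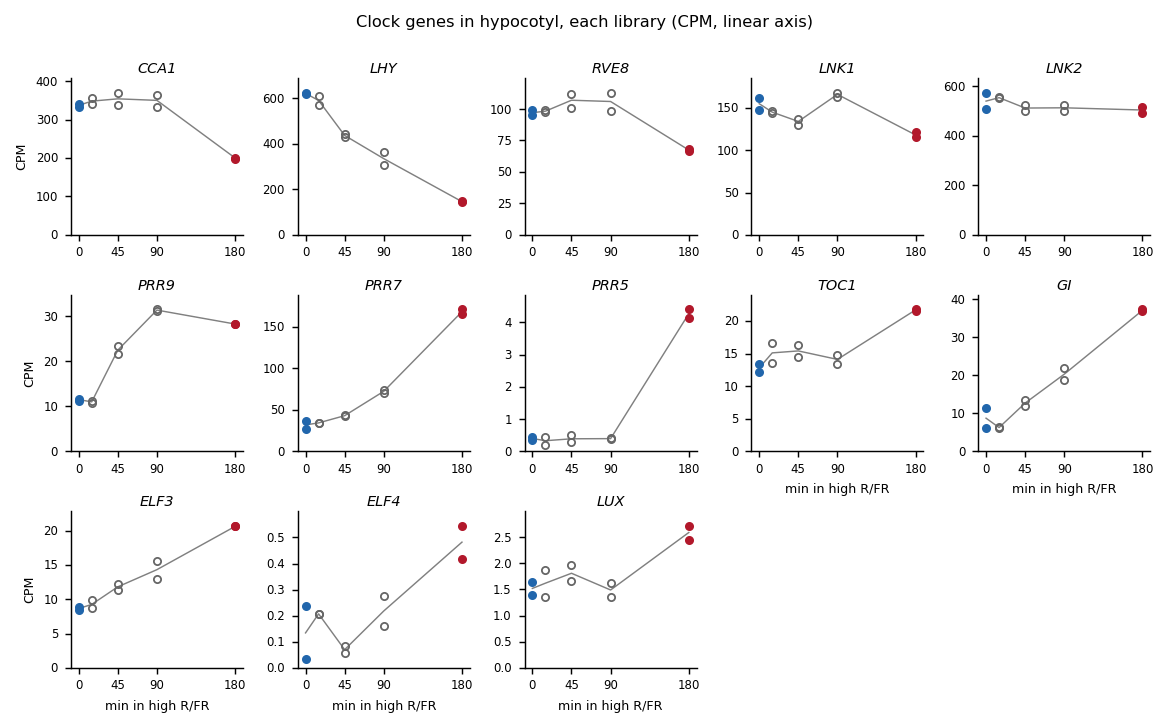
CPM of 13 clock genes in each hypocotyl library in high R/FR (y axis, linear, from 0) against minutes in high R/FR (x axis), with 0 min in blue, 180 min in red, other times open and a line through the means of 2 libraries. LHY goes down at each step from 15 min on, CCA1 is level until 90 min, PRR9 is highest at 90 min, PRR7, GI and ELF3 climb to 180 min, and PRR5 leaves its baseline at 180 min.

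Motifs in the 250 bases before the start were counted in the 20002 tested genes with such a window. The evening element stood in 4.2% of promoters of genes called higher and 1.43% of genes called lower, against 2.43% of all. Of the 487 genes that carry it, 186 (38.2%) were called higher and 66 (13.6%) lower, where 22% and 22.9% of all genes were, and their median change was 0.24. Shares were closer together for the CCA1 binding site (7.66% of genes called higher, 5.96% of genes called lower, 6.75% of all) and the G-box (7.55%, 7.98% and 7.23%). The telo-box stood in 1.56% of genes called higher and 2.6% of genes called lower, against 2.07% of all. Site II stood in 12.7% of genes called higher and 20.2% of genes called lower, against 16.7% of all. Among genes that changed at least 2-fold, site II stood in 8.52% of those higher and 14.7% of those lower, both below the 16.7% of all. In these 2-fold sets the G-box stood in 7.8% of those higher and 10.3% of those lower. The evening element stood there in 5.74% and 1.71%. Of the 29 clock genes 6 (20.7%) held an evening element and 11 (37.9%) a G-box. The G-box reads the same on both strands, and an evening element holds no CCA1 binding site letters, so the 2 were counted apart.

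**Figure D2:**
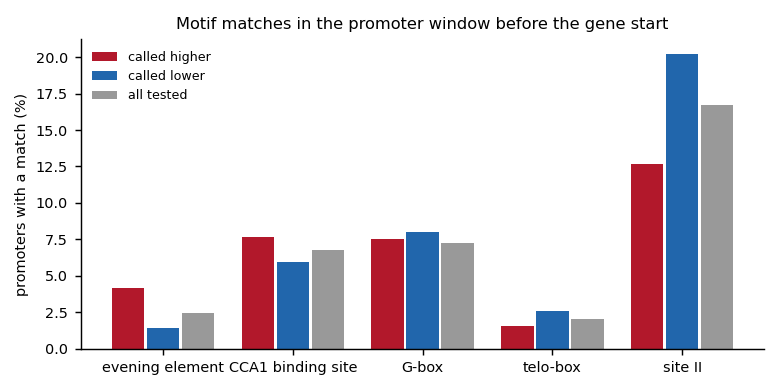
Share of promoter windows with a match to each of 5 motifs (y axis, percent, from 0) among genes called higher at 180 min (red), called lower at 180 min (blue) and all genes tested (grey). The evening element is more frequent in the red bar (4.2%) than in the blue (1.43%), and site II is more frequent in the blue (20.2%) than in the red (12.7%).

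Of 18 tested photoperiod and output genes 8 were higher and 6 lower, with a median change of 0.02. CAT3, a catalase that peaks late in the day, had 4460 and 4860 CPM at 180 min against 1660 and 1870 CPM at 0 min, with every time between in order of its mean. The CONSTANS-like genes COL1 (54.8 and 57.2 CPM at 180 min, 98.4 and 101 CPM at 0 min) and COL2 (119 and 122 CPM at 180 min, 240 and 224 CPM at 0 min) fell. CDF2, a DOF factor that represses CONSTANS, had 15.1 and 17.1 CPM at 180 min and 35.1 and 32.5 CPM at 0 min. Among 16 cold-regulated genes, 6 were higher and 6 lower. The chloroplast membrane gene COR413IM1 had 7.24 and 8.20 CPM at 180 min against 1.8 and 2.39 CPM at 0 min, and the galactinol synthase GOLS3 had 2.1 and 1.90 CPM against 0.516 and 0.473 CPM. The stress gene RD29A had 13.4 and 14 CPM at 180 min, below its 34.6 and 50.9 CPM at 0 min.

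Of 40 photoreceptor and light-signalling genes 19 were higher and 15 lower, a count of lower genes that dropped to 9 without replicate 2 of 180 min. BBX22, a B-box factor that promotes light-grown development, had 52.9 and 49.7 CPM at 180 min against 3.13 and 4.29 CPM at 0 min (change 3.78 ± 0.16, edgeR adjusted p = 1.15e-16). The blue-light receptors of the phototropin pair moved apart. PHOT1 had 493 and 506 CPM at 180 min against 219 and 227 CPM at 0 min, and PHOT2 had 306 and 311 CPM at 180 min against 535 and 559 CPM at 0 min. FHL, which carries phytochrome A into the nucleus, had 5.26 and 6.26 CPM at 180 min and 1.06 CPM in both 0 min libraries.

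Plants build starch by day and break it down at night. Of 18 tested genes of starch breakdown 12 were higher and 4 lower at 180 min. Their median change was 1.08, beside 0.0085 for all genes. Their summed level still overlapped between the times, with 845.2 and 874.1 CPM at 180 min and 893.9 and 844.7 CPM at 0 min. The glucan phosphorylases PHS2 and PHS1 had 53.8 and 55.3 CPM and 104 and 102 CPM at 180 min, against 7.06 and 7.57 CPM and 19.7 and 19.5 CPM at 0 min. GWD1, the glucan, water dikinase that opens the granule to attack, had 102 and 115 CPM at 180 min against 21.8 and 23.7 CPM at 0 min. All 3 climbed through 45 and 90 min. The 4 that fell were all members of the beta-amylase family, BAM1, BAM2, BAM3 and BAM9, named after their values were seen. BAM9, a family member without catalytic activity, had 58.1 and 61.1 CPM at 180 min against 344 and 304 CPM at 0 min (change -2.44 ± 0.08, edgeR adjusted p = 2.16e-18). Of 16 starch synthesis genes 8 were higher, among them the starch synthase SS4 (34.8 and 35.6 CPM at 180 min, 14.7 and 13.7 CPM at 0 min), and 3 were lower. The granule-bound synthase GBSS1 had 215 and 218 CPM at 180 min against 462 and 453 CPM at 0 min, having stood at 428 to 611 CPM until 90 min.

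Of 49 nuclear photosynthesis genes 25 were higher and 6 lower, with a median change of 0.28, and 2 of them rose at least 2-fold. The light-harvesting gene LHCB1.2 had 2470 and 2770 CPM at 180 min against 1280 and 1320 CPM at 0 min, and LHCA1 of photosystem I had 3840 and 3970 CPM against 2340 and 2610 CPM. LHCB1 genes are near-identical copies, so reads may be split among them in a way that cannot be checked here. The 6 that fell were the antenna gene LHCB4.3 and 5 genes of carbon fixation, the Calvin cycle genes FBA1, FBA2, GAPA and PRK and the Rubisco small subunit gene RBCS1B. Of these, FBA1, a chloroplast aldolase, had 735 and 851 CPM at 180 min against 1860 and 1630 CPM at 0 min. Chlorophyll synthesis gave 4 higher and 6 lower of 24 genes. PORB, a protochlorophyllide reductase, had 64.7 and 63.0 CPM at 180 min against 9.89 and 9.78 CPM at 0 min, while GUN5, a subunit of magnesium chelatase, had 1220 and 1320 CPM against 1830 and 1840 CPM. Of 83 chloroplast-encoded and 17 mitochondrial genes tested none was called, with median changes of -0.12 and -0.06.

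Genes of flavonoids and phenylpropanoids, which give sunscreen pigments and lignin precursors, fell. Of 22 tested genes 17 were lower and 2 higher, with a median change of -1.16. Chalcone synthase CHS, the first enzyme of the flavonoid branch, averaged 1.18 ± 0.298 CPM at 180 min and 19.4 ± 2.55 CPM at 0 min (SD, n = 2 each), a change of -4.02 ± 0.43 (edgeR adjusted p = 2.16e-07). F3H had 15.0 and 12.8 CPM at 180 min against 83 and 90.5 CPM at 0 min, CHI 4.38 and 3.87 CPM against 27.2 and 28.5 CPM, and the flavonol glycosyltransferase UGT78D1 58.2 and 52.6 CPM against 198 and 171 CPM. These 3 declined at every time from 15 min to 180 min. The 2 that rose were the regulators MYBL2 and MYB111, singled out after their values were seen, at changes of 2.94 and 2.08; MYBL2 represses the pathway and MYB111 activates its flavonol branch. The early light-induced gene ELIP1, a photoprotective protein of the thylakoid, had 0.327 and 0.387 CPM at 180 min against 6.22 and 8.28 CPM at 0 min, the largest fall (change -4.34 ± 0.35) among called genes with a mean level of at least 1 on the log2 CPM scale over all 36 libraries whose groups did not overlap.

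Carbon and nitrogen genes gave mixed counts. Of 23 carbon starvation genes 9 were higher and 6 lower. The dormancy-associated genes DRM2 (122 and 130 CPM at 180 min, 15.0 and 15.8 CPM at 0 min) and DRM1 (34.1 and 35.8 CPM, 11.2 and 13.4 CPM) lay between 13.9 and 27.1 CPM and between 10.0 and 14.4 CPM at 15, 45 and 90 min. SIP2, an alkaline alpha-galactosidase, had 194 and 211 CPM at 180 min against 740 and 652 CPM at 0 min, with its lowest values at 90 min (142 and 103 CPM). Of 16 genes of nitrate assimilation and amides 6 were higher and 3 lower, all within a change of 1.12, with 1 lower without replicate 3 of 180 min. The glutamate synthase GLT1 had 697 and 736 CPM at 180 min against 471 and 464 CPM at 0 min, and the asparagine synthetase ASN3 14.5 and 14.6 CPM against 20.1 and 20.8 CPM.

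**Figure D3:**
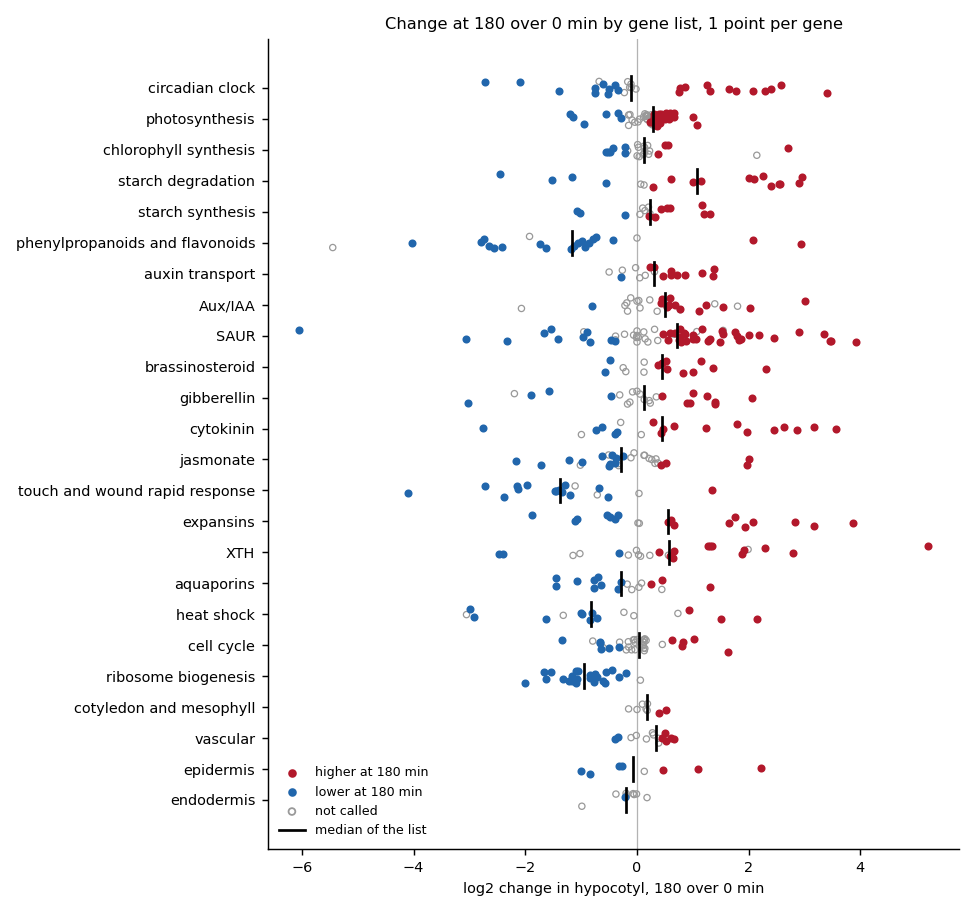
Log2 change in hypocotyl, 180 over 0 min (x axis), of each tested gene in the lists named on the y axis, with genes called higher in red, called lower in blue, not called open, and the median of the list as a black bar. Starch degradation and SAUR medians stand right of 0, flavonoid, touch and ribosome biogenesis medians stand left of it, and the clock list is split.

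Aux/IAA, SAUR and auxin transport genes leaned upward, beside the 22% of all genes that were higher and the 22.9% that were lower. The Aux/IAA genes, repressors that auxin both induces and removes, had 12 of 27 tested members higher and 1 lower, with a median change of 0.51. IAA7 had 773 and 820 CPM at 180 min against 474 and 523 CPM at 0 min, and IAA2 125 and 126 CPM against 53.8 and 62.7 CPM. IAA6 stayed at 0.118 to 0.458 CPM until 90 min and had 1.44 and 1.32 CPM at 180 min (change 3.00 ± 0.41, edgeR adjusted p = 5.64e-07). Among SAUR genes, small auxin-induced proteins that promote acid growth of the wall, 33 of 62 tested were higher and 11 lower, with a median change of 0.72. SAUR1 had 16.6 and 16.8 CPM at 180 min against 1.77 and 2.63 CPM at 0 min, and SAUR71 0.381 and 0.516 CPM against 4.96 and 2.54 CPM. Many SAUR genes are near-identical neighbours, so counts of single members are uncertain.

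The auxin-conjugating enzyme GH3.6 had 497 and 576 CPM at 180 min against 195 and 209 CPM at 0 min, and GH3.3 22 and 20.9 CPM against 5.45 and 6.09 CPM; 3 of 9 genes of auxin inactivation rose and none fell, with 1 lower without replicate 1 of 0 min. Of 17 transport genes 10 were higher and 1 lower, with none lower without replicate 3 of 180 min or replicate 1 of 0 min. The exporter ABCB19, which moves auxin down the stem, had 493 and 495 CPM at 180 min against 200 and 185 CPM at 0 min (change 1.36 ± 0.10, edgeR adjusted p = 1.64e-12). PIN7 had 266 and 258 CPM at 180 min and 115 and 117 CPM at 0 min, with 211 and 208 CPM at 45 min and 207 and 218 CPM at 90 min. For synthesis, 2 of 8 tested genes were higher, near the 22% of all genes. They were the aminotransferase TAA1 (1.58 and 1.19 CPM at 180 min, 0.709 and 0.650 CPM at 0 min) and the monooxygenase YUC3 (0.463 and 0.290 CPM at 180 min, 0.0322 and 0.0296 CPM at 0 min). Without replicate 2 of 180 min TAA1 lost its call (edgeR adjusted p = 0.0692) and 1 of the 8 was higher, as in the fit of the 4 libraries alone.

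The lists of other growth hormones are read against the 22% of all genes that were higher and the 22.9% that were lower. Of 15 brassinosteroid genes 9 were higher and 2 lower. BR6OX1, which makes the active hormone, had 8.28 and 6.68 CPM at 180 min against 1.61 and 1.42 CPM at 0 min, DWF4, an early hydroxylase of the pathway, 27.6 and 27.5 CPM against 14.2 and 17 CPM, and the receptor gene BRI1 296 and 285 CPM against 121 and 140 CPM. Gibberellin genes gave 8 higher and 4 lower of 23. The oxidases KAO2 (108 CPM in both 180 min libraries, 45.2 CPM in both 0 min libraries) and GA20OX1 (5.53 and 5.26 CPM at 180 min, 1.8 and 2.28 CPM at 0 min) rose, while GA3OX2, a last step to active gibberellin, fell (2.12 and 1.65 CPM at 180 min, 6.86 and 7.27 CPM at 0 min). Ethylene genes gave 9 higher and 2 lower of 23, with none lower without either 180 min library and 1 lower without either 0 min library. ACS4, a synthase of the ethylene precursor, had 0.490 and 0.161 CPM at 180 min and no count in either 0 min library, which makes it at least 7.34-fold higher against a floor of 3 counts over the 0 min group. The receptor gene ERS1 had 51.6 and 53.2 CPM at 180 min against 34.7 and 32.8 CPM at 0 min.

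Abscisic acid, the drought hormone, gave 3 higher and 6 lower of 19 genes, counts near those shares of all genes, and 1 was higher without replicate 2 of 180 min. ABF1, a transcription factor of its response, stayed below 1 CPM until 90 min and had 4.3 and 5.32 CPM at 180 min, while ABF2 (26 and 27.1 CPM at 180 min, 49.0 and 47.5 CPM at 0 min) and ABF3 (107 and 100 CPM, 159 and 161 CPM) fell. Jasmonate, the wound hormone, gave 4 higher and 11 lower of 28. MYC2, its main transcription factor, had 21.6 and 19.4 CPM at 180 min against 44.5 and 37.3 CPM at 0 min, and the repressor gene JAZ9 32.2 and 37.4 CPM against 77.9 and 83.9 CPM.

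The type-A response regulators are induced within minutes by cytokinin and damp its signal, and the oxidases of the CKX family degrade the hormone; of 20 tested cytokinin genes 12 were higher and 5 lower at 180 min, with 3 lower without replicate 1 of 0 min. ARR5 (AT3G48100) had 38.4 and 37.4 CPM at 180 min against 3.58 and 2.84 CPM at 0 min (change 3.57 ± 0.21, edgeR adjusted p = 7.58e-13). ARR6 had 19 and 17.3 CPM at 180 min against 2.80 and 2.19 CPM at 0 min, and ARR7 14.3 and 13.6 CPM against 1.77 and 2.69 CPM. Each was also high at 45 min (40.2 and 34.4, 23.3 and 23.1, and 32 and 26 CPM) and low at 90 min (9.78 and 12, 5.66 and 6.54, and 3.71 and 4.56 CPM). The step at 90 over 45 min, a comparison chosen after these values were seen, was -1.78 ± 0.18 for ARR5, -1.93 ± 0.19 for ARR6 and -2.81 ± 0.20 for ARR7 (edgeR adjusted p = 3.08e-07, 1.34e-07 and 3.71e-09). That comparison called 1716 genes in all (8.53%), 872 higher (4.33%) and 844 lower (4.19%), and leaving out 1 of its libraries gave 373 to 533 higher and 288 to 518 lower. The oxidase CKX1 had no such dip, with 6.01 and 6.26 CPM at 45 min, 6.18 and 6.19 CPM at 90 min and 12.6 and 11.6 CPM at 180 min, against 1.97 and 2.42 CPM at 0 min.

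Cell wall genes changed in both directions. Expansins loosen the wall without cutting it, and 10 of 19 tested were higher and 7 lower, a count of lower genes that dropped to 4 without replicate 1 of 0 min. EXPA1 (AT1G69530) had 899 and 957 CPM at 180 min against 129 and 131 CPM at 0 min (change 2.83 ± 0.20, edgeR adjusted p = 1.17e-10), and had reached 656 and 623 CPM at 45 min. EXPA11 had 179 and 176 CPM at 180 min and 49.2 and 43.7 CPM at 0 min. EXLA1, an expansin-like gene, had 0.806 to 2.66 CPM until 90 min and 12.9 and 12.5 CPM at 180 min. EXPB3, a beta-expansin, declined at every time and had 271 and 263 CPM at 180 min against 1040 and 917 CPM at 0 min.

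The XTH genes encode enzymes that cut and rejoin xyloglucan, the tether between cellulose fibrils. Of 24 tested 12 were higher and 3 lower, with a median change of 0.58. XTH33 (AT1G10550) had 4.19 and 5.29 CPM at 180 min against 0.0322 and 0.207 CPM at 0 min (change 5.21 ± 0.49, edgeR adjusted p = 6.88e-09), with 2.63 and 2.79 CPM at 45 min and 0.330 and 0.777 CPM at 90 min. XTH9 had 24.4 and 22.3 CPM at 180 min against 6.28 and 6.41 CPM at 0 min and likewise stood lower at 90 min (7.78 and 8.15 CPM) than at 45 min (14.1 and 12 CPM). At 90 over 45 min XTH33 changed by -2.28 ± 0.38, XTH9 by -0.71 ± 0.16 and SAUR1 by -1.0 ± 0.24 (edgeR adjusted p = 0.000363, 0.00574 and 0.0109). As given above, that comparison was chosen after values were seen. XTH31 and XTH32 fell throughout, to 246 and 250 CPM and 123 and 133 CPM at 180 min, against 1340 and 1420 CPM and 649 and 696 CPM at 0 min. The summed level of the 24 genes was lower at 180 min (3632 and 3471 CPM) than at 0 min (4144 and 4289 CPM) although more members rose than fell.

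**Figure D4:**
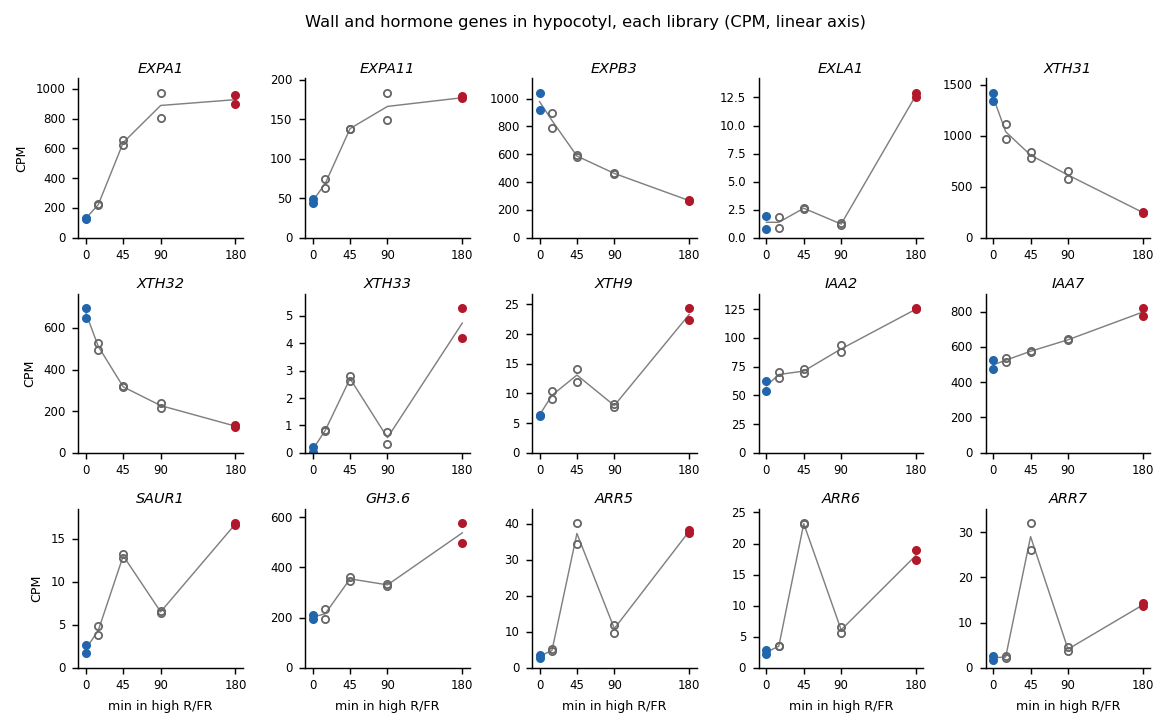
CPM of 15 wall and hormone genes in each hypocotyl library in high R/FR (y axis, linear, from 0) against minutes in high R/FR (x axis), with 0 min in blue, 180 min in red, other times open and a line through the means of 2 libraries. EXPA1 and EXPA11 climb early, EXPB3, XTH31 and XTH32 decline at each time, and ARR5, ARR6, ARR7, XTH33, XTH9 and SAUR1 dip at 90 min between higher values at 45 and 180 min.

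Cellulose synthesis gave 3 higher and 4 lower of 14 genes, near the shares of all genes. The higher count was 1 without either 180 min library and 0 without replicate 2 of 0 min or in the fit of the 4 libraries alone, and the lower count was 2 without replicate 2 of either time. The primary wall synthases CESA5 (90.0 and 96.0 CPM at 180 min, 170 and 196 CPM at 0 min) and CESA2 (91.9 and 96.4 CPM, 136 and 151 CPM) fell. Of 17 aquaporins, the water channels of the plasma membrane and vacuole, 9 were lower and 3 higher, with 1 higher without replicate 2 of 0 min. GAMMA-TIP, a vacuolar channel, had 119 and 121 CPM at 180 min against 300 and 355 CPM at 0 min, and the plasma membrane channel PIP2A 1260 and 1290 CPM against 1920 and 2230 CPM. DELTA-TIP went the other way, with 832 and 902 CPM at 180 min and 299 to 402 CPM in every earlier library. Cuticle and wax genes gave 9 lower and 3 higher of 16, with 1 higher without replicate 1 of 0 min. Among the lower ones were CER6, which makes the long chains of wax (651 and 558 CPM at 180 min, 971 and 1200 CPM at 0 min), and the wax transporter ABCG12 (223 and 211 CPM, 373 and 415 CPM). The epidermis markers, which include CER6, were split, with 3 of 8 higher and 4 lower as given above. Their median change was -0.07, against -0.44 for the cuticle and wax list. Their part was not tested. Cell cycle genes gave 5 higher, 6 lower and 26 not called of 37, with 3 higher without replicate 2 of 180 min, 2 higher without replicate 2 of 0 min and 3 lower without replicate 3 of 180 min. Over all genes 22% were higher and 22.9% lower. The D-type cyclin CYCD1;1 had 19.8 and 22.8 CPM at 180 min against 7.54 and 6.30 CPM at 0 min.

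Rapid stress genes fell. Of 18 tested genes that respond within minutes to touch or wounding 14 were lower and 1 higher at 180 min, with a median change of -1.37, and the count of lower genes dropped to 8 without replicate 1 of 0 min, to 8 in a fit of the 10 high R/FR hypocotyl libraries and to 6 in a fit of the 4 libraries alone. In that last fit TCH3 and ZAT10 were not called (edgeR adjusted p = 0.087 and 0.113). The calmodulin-like gene TCH3 had 44.3 and 24.7 CPM at 180 min against 166 and 105 CPM at 0 min (change -1.96 ± 0.32, edgeR adjusted p = 5.26e-05). The zinc finger gene ZAT10 had 1.39 and 0.871 CPM at 180 min against 11.5 and 3.81 CPM at 0 min, and the defence regulator WRKY18 6.86 and 6.03 CPM against 21.5 and 14.3 CPM. In each of these the 2 libraries of 0 min lay far apart, with replicate 1 the higher. The member that rose was TCH4, an XTH gene known as XTH22, at a change of 1.34. Heat shock genes gave 8 lower and 3 higher of 16, with a median of -0.83. HSP70 had 29.5 and 25.8 CPM at 180 min against 144 and 275 CPM at 0 min, and HSP101 11.7 and 12.3 CPM against 19.2 and 28.4 CPM. Here replicate 2 of 0 min was the higher of its pair.

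Genes that build ribosomes fell. Of 24 tested ribosome biogenesis genes 23 were lower and none higher, with a median change of -0.95. NOP56, a core protein of small nucleolar ribonucleoproteins, had 39.4 and 39.9 CPM at 180 min against 128 and 116 CPM at 0 min (change -1.62 ± 0.09, edgeR adjusted p = 3.78e-14). NAP57, the pseudouridine synthase dyskerin, had 20.8 and 21.0 CPM at 180 min and 66.1 and 66.6 CPM at 0 min, and the RNA methyltransferase FIB1 71.5 and 74.1 CPM and 179 and 184 CPM. These 3 came down at 45, 90 and 180 min in turn. Of 246 tested genes described as ribosomal proteins and not as plastid or mitochondrial 180 were lower and 10 higher, with a median of -0.57, and 5 of the 180 fell at least 2-fold. Without replicate 3 of 180 min or replicate 2 of 0 min 5 of the 246 were higher. The descriptions do not give a compartment for every gene, and many are near-identical copies. Site II, known from promoters of such genes, stood in 14 of the 24 biogenesis genes (58.3%) and 125 of the 246 ribosomal protein genes (50.8%), against 16.7% of all. Of 46 histone genes 15 were higher and none lower (3 lower without replicate 2 of 0 min). Of 37 proteasome genes 3 were higher and 1 lower, below the shares of all genes, and the higher count was 0 without replicate 3 of 180 min or in the fit of the 4 libraries alone and 1 without either 0 min library. WRKY (9 higher and 10 lower of 50), NAC (9 and 16 of 63) and ERF factors (15 and 11 of 59) changed both ways. Of all genes 22% were higher and 22.9% lower, so a split of this kind is not particular to these families. The lower counts were 5 for WRKY factors without replicate 3 of 180 min and 7 for ERF factors without replicate 1 of 0 min. NAC factors gave 5 higher and 9 lower without replicate 2 of 180 min, and 4 higher and 8 lower without replicate 2 of 0 min.

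The 10 largest rises were drawn from called genes with groups not overlapping and an average log2 CPM of at least 1 over all 36 libraries. Among them was CIPK20, a protein kinase of calcium signalling, with 89.6 and 84.2 CPM at 180 min against 1.77 and 4.67 CPM at 0 min (change 4.73 ± 0.23, edgeR adjusted p = 4.55e-13). Fes1B, a cochaperone of HSP70, had 20.7 and 21.1 CPM at 180 min against 0.806 and 1.01 CPM at 0 min, and the receptor-like kinase LYK3 23.5 and 19.5 CPM against 1.13 and 1.12 CPM. THA1, a threonine aldolase, fell to 0.953 and 1.45 CPM at 180 min, against 15.5 and 22.3 CPM at 0 min. SAG29, a sugar transporter of the SWEET family, had 1.88 and 1.97 CPM at 180 min against 20.9 and 20.5 CPM at 0 min. Both declined through 45 and 90 min.

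The cotyledons of the same experiment gave 11189 calls (55.6%) at 180 over 0 min (6468 or 32.1% higher, 4721 or 23.5% lower). Of the 9044 genes called in hypocotyl 5726 (63.3%) were called in the same direction in cotyledon and 735 (8.13%) in the opposite one. The difference of the change in hypocotyl and cotyledon was tested directly. It was called for 6852 genes (34%), 2849 (14.2%) with the higher change in hypocotyl and 4003 (19.9%) with the lower. With another scaling (RLE size factors) the split was 3309 to 3307, and with the 20 high R/FR libraries alone 3567 to 3209. It was 3004 to 2660 without hypocotyl replicate 3 of 180 min, 2924 to 2608 without its replicate 2, 3204 to 2883 without replicate 1 of 0 min and 2995 to 2518 without its replicate 2. Which direction held more genes therefore depended on the scaling and the libraries. Of the hypocotyl's 9044 calls, 4203 (46.5%) carried a called difference, and 1067 of these were not called in cotyledon.

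LHY changed by -2.1 in hypocotyl and -3.18 in cotyledon, where it had 62.0 and 57.2 CPM at 180 min and 537 and 543 CPM at 0 min, a difference of 1.09 (edgeR adjusted p = 4.05e-09). CCA1 changed by -0.76 in hypocotyl and -1.54 in cotyledon, a difference of 0.79 (adjusted p = 2.94e-07). For PRR9, PRR7, PRR5, TOC1, GI and ELF3 the difference was not called (edgeR adjusted p = 0.108, 0.659, 0.503, 1.0, 0.969 and 0.301), which does not show that the organs act alike. LUX rose in hypocotyl (0.78) and was not called in cotyledon (-0.29), with a called difference of 1.06 (adjusted p = 0.000792).

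In XTH genes 12 were higher and 3 lower in hypocotyl, against 4 higher and 13 lower in cotyledon, and 12 of 24 had a called difference toward the hypocotyl. XTH33 in cotyledon had 1.41 and 1.45 CPM at 180 min against 13.3 and 10.5 CPM at 0 min, the reverse of the hypocotyl, and the difference was 8.26 ± 0.56 (edgeR adjusted p = 2.71e-10). Expansins gave 3 higher and 8 lower in cotyledon, and EXPA1, with 393 and 408 CPM at 180 min and 470 and 434 CPM at 0 min there, did not pass the test in that organ; the difference was 3.01 (adjusted p = 1.94e-08). Cytokinin genes gave 4 higher and 7 lower in cotyledon, and the differences of ARR5, ARR6 and ARR7 were 3.47, 3.86 and 3.89 (adjusted p = 1.44e-08, 5e-10 and 1.51e-09). Touch and wound genes gave 7 higher and 3 lower in cotyledon, with 13 of 18 differences called toward a lower change in hypocotyl. The ribosome biogenesis genes fell further in cotyledon, with a median change of -0.95 in hypocotyl and -2.16 in cotyledon, and the difference was called for all 24, 23 of them with the higher change in hypocotyl. These list counts moved by at most 3 genes with RLE size factors or with the 20 high R/FR libraries alone.

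**Figure D5:**
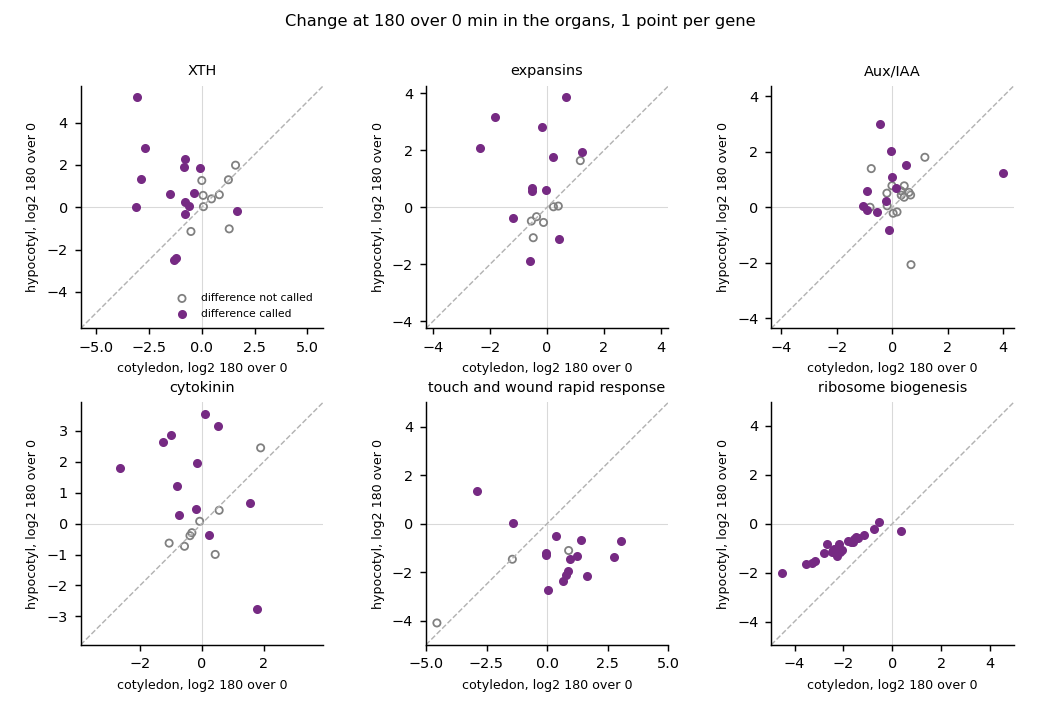
Log2 change of 180 over 0 min in hypocotyl (y axis) against that in cotyledon (x axis) for 6 gene lists, 1 point per gene, with a called difference between the organs in purple, others open and the dashed line at equal change. XTH, expansin and cytokinin genes lie mostly above the line, touch and wound genes below it, and ribosome biogenesis genes above it at negative values in both organs.

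The authors' deposited table of mean levels, made from the same libraries, was compared as a check of the calculation. It is no separate evidence for the changes. Of the 9044 called genes, 9044 had the same sign of the 180 minus 0 min difference in the authors' deposited table, and the median absolute difference between its log2 change and the one fitted here was 0.002.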

How the data were processed

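RNA sequencing measured gene levels in 36 Arabidopsis libraries, 2 per group. Per the submitters' processing notes, reads were handled on build TAIR10 with limma 3.18.2, edgeR 3.4.0, HTSeq 0.5.4p3, TopHat2 2.0.9 on Bowtie, and cutadapt 1.2.1, in no stated order; the library kit was stranded, per the labels' protocols. The authors deposited raw read counts per gene for each library and a table of mean log2 levels per group.

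All 36 libraries were fitted in edgeR 4.0.16 (R 4.3.3), with 1 mean per group, TMM scaling, filterByExpr (minimum count 10, minimum total 15) and robust quasi-likelihood tests. Adjusted p-values cover all 20126 genes, and CPM use TMM-scaled library sizes. The organ difference is an interaction contrast. The method was tested on simulated data. Named genes are the clock panel, the 10 largest rises and the 10 largest falls among called genes (groups not overlapping, average log2 CPM at least 1), up to 4 called members of each list with the smallest p, and 5 each way with the largest organ difference; other named members were chosen after their values were seen. Members and lists were chosen with earlier results of these data known.

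Replicate libraries differed by more than sampling noise (chi-square per degree of freedom 3.76 to 20.82). The hypocotyl 180 and 0 min groups in high R/FR share the number 2 alone, and those libraries did not deviate together (correlation -0.016). DESeq2 1.42.0, limma-voom (limma 3.58.1), other scaling, filters and library sets, and leaving out libraries were alternatives. Promoters are RefSeq sequences (TAIR10.1).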

Additional observations from a re-analysis of the deposited data

Results flagged for a closer look

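The change at 180 over 0 min was tested for a difference between hypocotyl and cotyledon by an interaction contrast (edgeR quasi-likelihood, adjusted over all genes), and named genes called there are given as hypocotyl minus cotyledon change on the log2 scale. Wall and growth genes higher in hypocotyl were XTH33 (8.26), XTH17 (5.48), EXLA1 (5.01), PHI-1 (5.19) and the vacuolar water channel DELTA-TIP (1.90). PHI-1 was not called in hypocotyl without replicate 1 of 0 min (edgeR adjusted p = 0.124). Hormone genes higher in hypocotyl were the cytokinin regulators ARR7 (3.89) and ARR6 (3.86), the gibberellin oxidase GA20OX1 (2.40) and the ethylene precursor synthase ACS4 (5.67). ACS4 and the small peptide gene RTFL18 (5.12) had no count in hypocotyl at 0 min, so these fitted differences depend on the prior count and are no bounds. RTFL18 was not called at 180 over 0 min in hypocotyl by limma-voom (change 3.09, limma-voom adjusted p = 0.0696). The factor DREB26 (3.35) and the peroxidase AT3G28200 (1.27) also differed toward the hypocotyl.

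Toward a lower change in hypocotyl stood the threonine aldolase THA1 (-5.79), SAUR71 (-4.83), the cytokinin oxidase CKX4 (-4.54), the touch gene TCH3 (-2.82), the starch synthesis gene APL3 (-1.49) and ERF4 (-0.89). Cuticle genes in this direction were CER6 (-1.24), ABCG12 (-1.12) and LACS2 (-0.97). MIF3 (-5.37) and AT5G48110 (-4.71) had no count in the cotyledon libraries of 0 min, so their differences depend on the prior count. Groups held 2 libraries, so single libraries were not tested as outliers.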

How the results depend on the processing

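The 4428 genes higher and 4616 lower at 180 min became 3555 to 3721 and 3677 to 3952 when 1 library was left out, and 4083 to 4616 and 4352 to 4725 with other scaling, filters, tools and library sets. Of the 201 named genes drawn by the stated rules, the 199 called at 180 over 0 min kept the sign of that change wherever they were tested. The sign was not followed for the uncalled ones or for members chosen after their values were seen. With the replicate number as a block, 4312 genes were higher and 4555 lower at 180 over 0 min. The organ difference then gave 2805 and 3949, 90 over 15 min 2512 and 2804, and 90 over 45 min 961 and 954. This block changed the calls of SCR, RPT3 and PBD2 among named genes. Whether the numbers pair the libraries of groups other than hypocotyl 180 and 0 min was not tested. Leaving out 1 library, the organ difference gave 2297 to 3204 higher and 2518 to 3688 lower, 90 over 15 min gave 1384 to 2100 and 1638 to 2333, and 90 over 45 min, added after seeing the data, gave 373 to 533 and 288 to 518; the cause was not tested. The organ split was 3145 to 3169 in DESeq2, and its larger side turned to the higher change in hypocotyl without the filter (3303 to 2930), with the 20 high R/FR libraries and without any 1 of the 4 hypocotyl libraries. At 90 over 45 min the split of 872 to 844 became 821 to 897 with RLE size factors, 823 to 947 in DESeq2 and 491 to 518 without replicate 1 of 45 min. Of 117 named genes with a called organ difference, 101 to 115 kept call and sign under each alternative. Genes with few or no counts in the 0 min hypocotyl libraries, such as ACS4, RTFL18 and YUC3, are limited by depth.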
